A study of Mus musculus with 8 samples.

Results

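The 10 genes described here make sphingomyelin or a related lipid from ceramide, or act on sphingosine 1-phosphate, a signalling lipid abbreviated S1P. Those of S1P make, break down, sense or carry it. All were chosen by name from a list of sphingomyelin synthases (*Sgms1*, *Sgms2*), the related *Samd8*, sphingosine kinases (*Sphk1*, *Sphk2*) and the S1P lyase (*Sgpl1*). The list also held an S1P phosphatase (*Sgpp1*), S1P receptors (*S1pr1*, *S1pr2*) and the S1P carrier apolipoprotein M (*Apom*). All 10 were found among the 55416 mouse gene identifiers of the deposited table, and all 10 passed the filter on low values. RNA sequencing was carried out on 4 knockout and 4 floxed control mouse livers. The knockouts carried floxed *Smpd3* and an albumin promoter-driven Cre recombinase (Alb-cre+), which is active in hepatocytes, so that other liver cells keep the gene. The controls carried the floxed gene with no Cre (Alb-cre-), so that effects of Cre itself and of losing *Smpd3* cannot be told apart. Both groups were fed HFMCD for 9 weeks to induce steatohepatitis, and there was no group on another diet. The strain, age and sex are not given in the labels, nor is it said that each library came from its own animal, so the p-values reflect only how far these 8 samples spread.

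Sphingomyelin is a main lipid of the plasma membrane. Sphingomyelin synthases build it by moving phosphocholine from phosphatidylcholine to ceramide, and sphingomyelinases such as the product of *Smpd3* take it apart again. Ceramide stripped of its fatty acid gives sphingosine, which the sphingosine kinases turn into S1P. S1P is either dephosphorylated back to sphingosine or cleaved for good by the lyase. In blood it travels largely on apolipoprotein M of high-density lipoprotein (HDL), which hepatocytes secrete, and it acts on receptors of endothelial cells, lymphocytes and other cells.

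No difference between the genotypes passed the test in any of the 10 genes. Values are TPM, the share of a library's transcripts that come from a gene, corrected for gene length. Fold changes are knockout over floxed control as differences of log2(TPM + 1), a scale that shrinks the changes of low genes. In limma, 0 of 10 genes passed a Benjamini-Hochberg adjusted p of 0.05, where 0.102% of the 12710 tested genes passed in either direction. The adjusted p lay between 0.606 and 0.993 in limma. At an unadjusted p under 0.05, 1 of the 10 passed, *Sgms2*, against 8.02% of all tested genes. A 2-sided exact permutation test of each gene's mean difference gave p = 0.0857 at the smallest, again for *Sgms2*, where 4 against 4 cannot go below 0.0286. The groups overlapped in all 10 genes, whereas they did not overlap in 4.74% of all tested genes. Fold changes were above 0 in 8 of the 10 genes, beside 64.6% of all tested genes, with a median of 0.20 for the 10 genes and 0.05 for all tested genes.

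**Figure D1:**
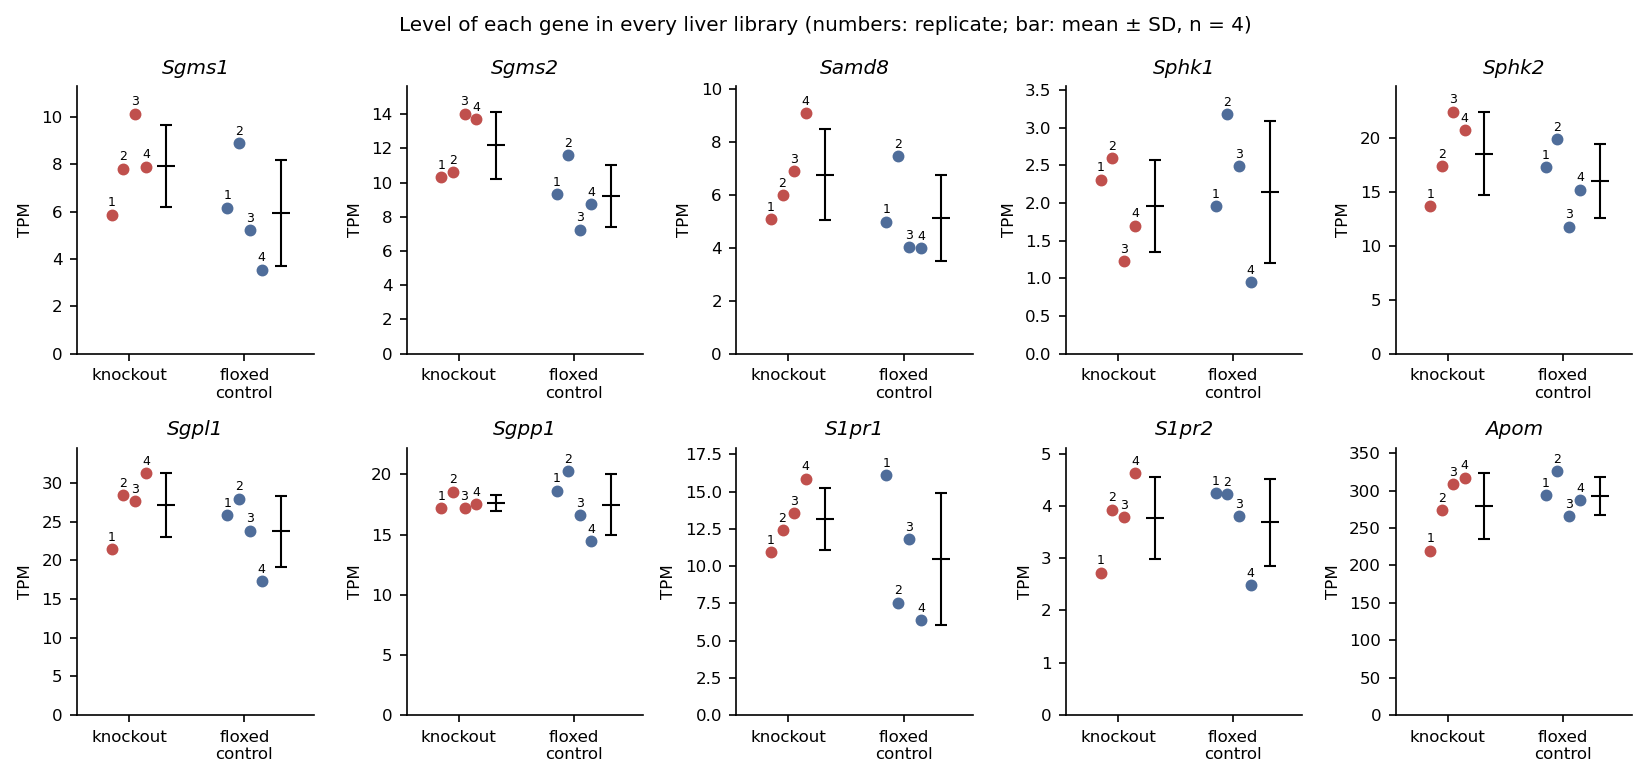
TPM (linear axis from 0) of each of the 10 genes in the 4 knockout libraries, drawn left, and the 4 floxed control libraries, drawn right. Points are libraries with their replicate number, bars are the mean ± SD, and the groups overlap in all 10 panels.

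The design was checked by the targeted gene and by library measures. *Smpd3* stood at 1.88 ± 0.86 TPM in knockout and 9.58 ± 2.65 TPM in floxed control livers (SD, n = 4 each), 19.6% of the control mean. It fell in the knockout (log2 fold change -1.89, adjusted p = 0.0300 in limma). That call was lost in 8 of 18 alternative settings, 6 of which left out a library: knockout 1, knockout 3 or any one of the floxed controls. The log2 fold change stayed between -2.34 and -1.07 over the 18 settings. Libraries summed to between 994563 and 995449 TPM, which keeps no record of depth. The number of genes reaching 1 TPM was smallest in floxed control 4, at 12115, and ran from 12474 to 12890 in the other 7 libraries. It was the lowest control for 62.6% of all tested genes, and knockout 1 was the lowest knockout for 56.6%. The 12 hepatocyte markers were all present, with summed levels of 83654 to 95098 TPM in knockouts and 89192 to 103875 TPM in floxed controls.

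The genes differed widely in level. Over all 8 libraries *Apom* averaged 286 TPM, above 96.5% of the tested genes, and its lowest library lay above the highest value of any other member. *Sgpl1* followed at 25.5 TPM, then *Sgpp1* at 17.6, *Sphk2* at 17.3, *S1pr1* at 11.8 and *Sgms2* at 10.7 TPM. *Sgms1* averaged 6.94 TPM, *Samd8* 5.93, *S1pr2* 3.73 and *Sphk1* 2.05 TPM. Below *Apom*, the range of each gene over the 8 libraries overlapped that of its neighbour in this order. Within a library the order was firmer for some neighbours. *Sgpl1* exceeded *Sgpp1*, *Sgms2* exceeded *Sgms1*, *Samd8* exceeded *S1pr2*, and *S1pr2* exceeded *Sphk1*, each in 8 of 8 libraries. *Sgpp1* and *Sphk2* could not be ordered, since *Sgpp1* was the higher in 5 of 8 libraries, and the same count held for *S1pr1* over *Sgms2*. The spread over libraries, as a coefficient of variation, ran from 9.78% for *Sgpp1* to 36.1% for *Sphk1*.

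The start regions of 4 members are shown because *Sgms2*, *Samd8* and *Sphk2* had the most similar profiles over the libraries among the synthases and kinases, as measured further on, and *Apom* stood apart in level. Each is the 250 bases before the annotated start in RefSeq (build GRCm38.p6), 5′ to 3′ on the gene's own strand. Where a gene had several start sites, the one nearest the 5′ end of the RefSeq gene was taken. The windows are chr3:131491444-131491693 (minus strand, *Sgms2*), chr14:21750281-21750530 (plus strand, *Samd8*), chr7:45718003-45718252 (minus strand, *Sphk2*) and chr17:35131802-35132051 (minus strand, *Apom*). Capitals mark matches, on either strand, to any of 5 motifs.
Sgms2: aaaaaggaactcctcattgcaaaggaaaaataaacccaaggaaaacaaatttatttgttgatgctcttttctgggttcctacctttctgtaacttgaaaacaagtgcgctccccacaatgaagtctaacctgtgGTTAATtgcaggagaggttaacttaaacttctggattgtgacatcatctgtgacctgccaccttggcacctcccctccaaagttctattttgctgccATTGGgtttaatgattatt
Samd8: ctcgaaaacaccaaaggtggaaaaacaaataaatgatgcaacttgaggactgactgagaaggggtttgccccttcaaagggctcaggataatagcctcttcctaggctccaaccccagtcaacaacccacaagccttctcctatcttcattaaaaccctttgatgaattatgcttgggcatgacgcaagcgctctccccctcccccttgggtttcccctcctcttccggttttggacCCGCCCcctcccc
Sphk2: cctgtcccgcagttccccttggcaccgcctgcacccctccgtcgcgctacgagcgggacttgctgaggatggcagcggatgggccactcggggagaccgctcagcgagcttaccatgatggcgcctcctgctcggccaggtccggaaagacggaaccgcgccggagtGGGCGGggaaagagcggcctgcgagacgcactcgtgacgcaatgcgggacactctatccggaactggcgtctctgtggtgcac
Apom: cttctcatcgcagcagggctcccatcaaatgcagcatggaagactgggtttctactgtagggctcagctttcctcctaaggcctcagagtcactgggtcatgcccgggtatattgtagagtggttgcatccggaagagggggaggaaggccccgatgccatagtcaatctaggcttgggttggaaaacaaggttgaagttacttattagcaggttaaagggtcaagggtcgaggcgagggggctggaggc
The HNF1 half-site was searched as GTTAAT, a sequence element bound by a liver transcription factor, and was present in 6.43% of the 32851 RefSeq windows of the same length. The CCAAT box, written as its name says, was present in 33.8% of them. The E-box, which clock factors bind, was searched as CACGTG and was present in 6.02%. The TATA box was searched as TATAAA and was present in 12.4%. The GC box was searched as GGGCGG and was present in 32.7%. No matches overlapped in the windows shown. The *Sgms2* window held 1 HNF1 half-site and 1 CCAAT box, and had a GC content of 40.0% with 1 CpG. The *Samd8* and *Sphk2* windows each held 1 GC box. *Sphk2* had 27 CpGs and *Samd8* 5, where the median window had 6. The letters of none of the 5 motifs occurred in the *Apom* window, which had 6 CpGs. Among the 9 members with a RefSeq window, the E-box letters occurred in none. A match is a stretch of letters and says nothing of binding.

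None of the sphingomyelin synthase genes *Sgms1* and *Sgms2* and the related *Samd8* passed the test, and their log2 fold changes lay between 0.35 and 0.40. *Sgms1* (ENSMUSG00000040451) encodes the synthase of the Golgi apparatus. It stood at 5.87, 7.81, 10.14 and 7.90 TPM in knockouts 1 to 4, against 6.16, 8.89, 5.21 and 3.55 TPM in floxed controls 1 to 4. Knockout 3 was the highest library and floxed control 4 the lowest, while floxed control 2 lay above 3 of the knockouts. Its log2 fold change of 0.40 ± 0.23 (SE) had a 95% interval of -0.12 to 0.91 (adjusted p = 0.750 in limma).

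*Sgms2* (ENSMUSG00000050931) encodes the synthase found mainly at the plasma membrane, the membrane where neutral sphingomyelinase 2 acts. Its level was 10.33, 10.62, 14.03 and 13.72 TPM in the knockouts, against 9.34, 11.59, 7.24 and 8.75 TPM in the floxed controls. All 4 knockouts lay above the control mean, but floxed control 2 exceeded knockouts 1 and 2, so the groups overlapped. The mean was 12.2 ± 1.97 TPM in knockout and 9.23 ± 1.80 TPM in floxed control livers (SD, n = 4 each), or 132% of the control mean. The log2 fold change of *Sgms2* was 0.37 ± 0.16 (SE), with a 95% interval of 0.02 to 0.72 that takes no account of the number of genes tested. Its unadjusted p was 0.0423 and its adjusted p 0.606 in limma, and the exact permutation test gave p = 0.0857.

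*Samd8* (ENSMUSG00000021770) encodes a related enzyme of the endoplasmic reticulum that makes ceramide phosphoethanolamine. It stood at 5.08, 5.97, 6.88 and 9.07 TPM in the knockouts, against 4.98, 7.45, 4.01 and 3.98 TPM in the floxed controls. Knockout 4 was the highest library, and floxed control 2 again lay among the knockouts. The fold change of *Samd8* on the log2 scale was 0.35 ± 0.21 (SE; 95% interval -0.11 to 0.82, adjusted p = 0.750 in limma).

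For each of *Sgms1*, *Sgms2* and *Samd8*, the share in their summed level overlapped between the genotypes. *Sgms2* supplied 45.5 ± 2.15% of the sum in knockout and 46.2 ± 5.30% in floxed control livers (SD, n = 4 each). *Sgms1* supplied 29.5 ± 3.37% in knockouts and 28.8 ± 4.76% in floxed controls, and *Samd8* 25.0 ± 3.18% in knockouts and 24.9 ± 1.15% in floxed controls. These shares were not tested. The sum of these genes, *Samd8* included, was 26.9 ± 4.81 TPM in knockout and 20.3 ± 5.45 TPM in floxed control livers.

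**Figure D2:**
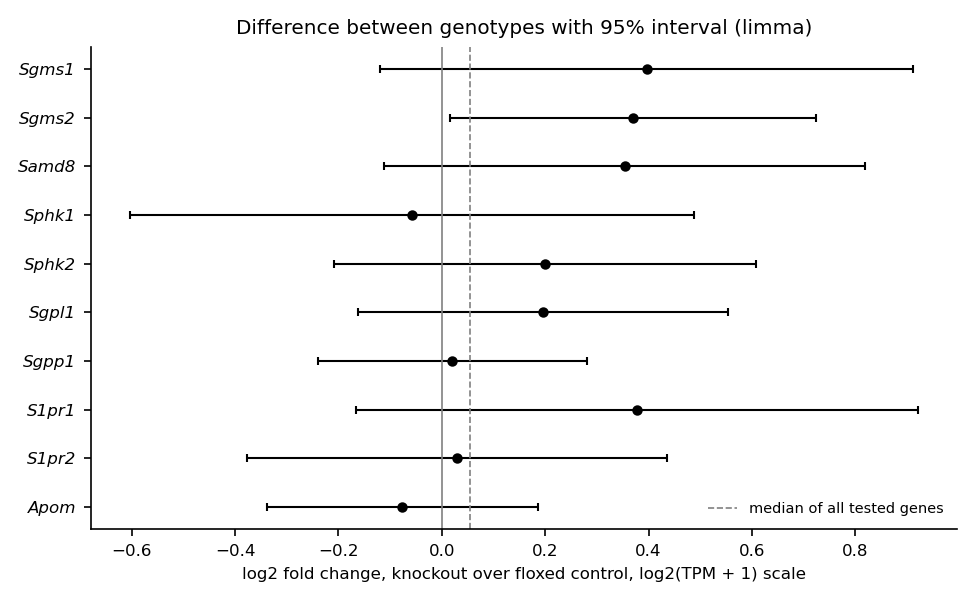
Log2 fold change of each gene, knockout over floxed control, on the log2(TPM + 1) scale (points) with its 95% interval from limma (lines). The interval of *Sgms2* (0.02 to 0.72) is the one of the 10 that leaves out 0, and the dashed line marks the median of all tested genes at 0.05.

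Of the sphingosine kinases, *Sphk2* had the higher listed TPM, a value made uncertain by overlapping genes described below. *Sphk1* (ENSMUSG00000061878), a mostly cytosolic kinase, stood at 2.31, 2.60, 1.23 and 1.70 TPM in the knockouts, against 1.96, 3.18, 2.49 and 0.95 TPM in the floxed controls. The controls held both the highest and the lowest of the 8 values. Its log2 fold change was -0.06 ± 0.25 (SE; 95% interval -0.60 to 0.49, adjusted p = 0.990 in limma). *Sphk1* made up 10.1 ± 4.39% of the summed kinase TPM in knockout and 11.8 ± 4.94% in floxed control livers (SD, n = 4 each).

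*Sphk2* (ENSMUSG00000057342) encodes the kinase found in the nucleus, mitochondria and endoplasmic reticulum. It stood at 13.68, 17.39, 22.48 and 20.78 TPM in the knockouts, against 17.29, 19.94, 11.80 and 15.22 TPM in the floxed controls. Knockouts 3 and 4 were the highest libraries, and knockout 1 lay below 3 of the controls. Its log2 fold change was 0.20 ± 0.18 (SE; 95% interval -0.21 to 0.61, adjusted p = 0.888 in limma).

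The value of *Sphk2* is uncertain because of its neighbours. In the GENCODE M21 annotation its exons overlap those of 2 genes on the opposite strand, the clock output gene *Dbp* over 539 and the ribosomal protein gene *Rpl18* over 373 of its 4159 exonic bases. The library kit marks strand, but how reads were assigned to strands was not stated in the labels. *Dbp* stood at 2.67, 3.06, 3.27 and 1.68 TPM in the knockouts, against 18.64, 35.43, 5.43 and 31.43 TPM in the floxed controls. All knockouts lay below all controls for *Dbp*, while its adjusted p of 0.108 in limma did not pass. *Rpl18* averaged 609 ± 29.6 TPM in knockout and 601 ± 20.7 TPM in floxed control livers (SD, n = 4 each). The part of either neighbour in the *Sphk2* value was not tested. *Sphk1* overlaps an opposite-strand transcript, *Gm29292*, over 192 of 4774 exonic bases, and that transcript was at most 0.10 TPM in any library.

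**Figure D3:**
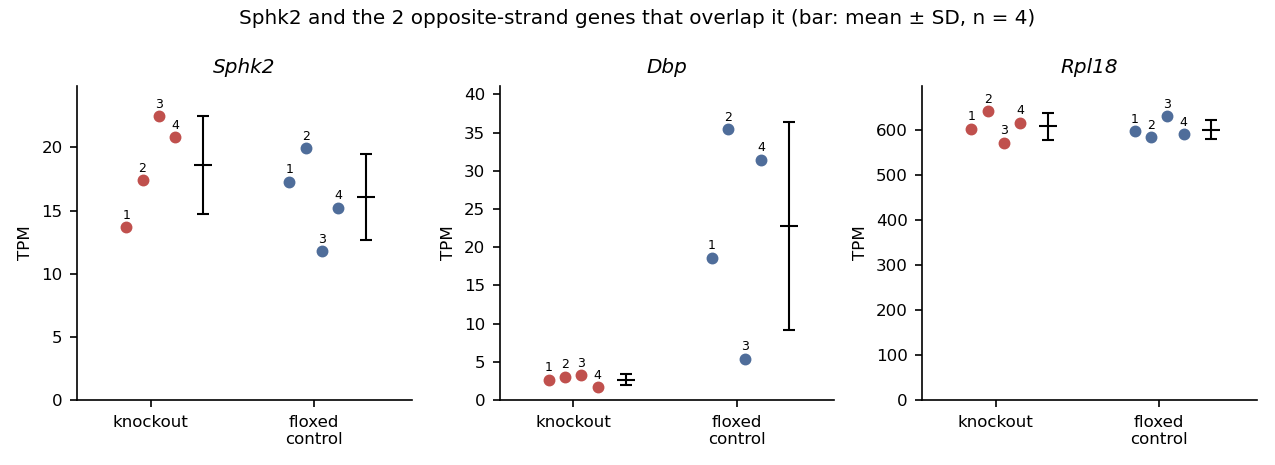
TPM (linear axes from 0) of *Sphk2* and of its overlapping opposite-strand neighbours *Dbp* and *Rpl18* in knockout (left) and floxed control (right) libraries. Points are libraries with their replicate number and bars the mean ± SD. *Dbp* is at most 3.27 TPM in the knockouts and at least 5.43 TPM in the controls, while *Sphk2* overlaps between the groups.

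The genes that remove S1P were expressed above the kinases or level with *Sphk2*. *Sgpl1* (ENSMUSG00000020097), the lyase of the endoplasmic reticulum that cleaves S1P irreversibly, stood at 21.42, 28.43, 27.71 and 31.26 TPM in the knockouts, against 25.84, 28.01, 23.84 and 17.36 TPM in the floxed controls. Knockout 1 and floxed control 4 were the lowest libraries of their groups. Its log2 fold change was 0.20 ± 0.16 (SE; 95% interval -0.16 to 0.55, adjusted p = 0.859 in limma). *Sgpp1* (ENSMUSG00000021054), the phosphatase that returns S1P to sphingosine, stood at 17.20, 18.57, 17.20 and 17.53 TPM in the knockouts, against 18.63, 20.29, 16.61 and 14.42 TPM in the floxed controls. The knockouts lay inside the range of the controls. Its log2 fold change was 0.02 ± 0.12 (SE; 95% interval -0.24 to 0.28, adjusted p = 0.993 in limma), and turned to -0.04 after quantile normalization.

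*S1pr1* (ENSMUSG00000045092) encodes a receptor that keeps vessel walls tight in endothelium and lets lymphocytes leave lymphoid organs. It stood at 10.95, 12.41, 13.54 and 15.88 TPM in the knockouts, against 16.13, 7.55, 11.81 and 6.36 TPM in the floxed controls. The knockouts fell within the control range, which was the wider. On the log2 scale the fold change of *S1pr1* was 0.38 ± 0.24 (SE; 95% interval -0.17 to 0.92, adjusted p = 0.791 in limma). In bulk tissue, fewer cells of a type and less RNA per cell cannot be told apart.

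Markers of the cells known to carry *S1pr1* were read beside it. The 14 liver endothelial markers summed to 131, 158, 158 and 161 TPM in knockouts 1 to 4, against 193, 203, 186 and 102 TPM in floxed controls 1 to 4. Of 13 tested, 10 had fold changes below 0, with a median of -0.15, and 0 passed in limma (1 at an unadjusted p under 0.05, lower in the knockout). *Lyve1*, a sinusoidal endothelial gene and the one of smallest p, stood at 2.18 ± 0.46 TPM in knockout and 4.83 ± 1.93 TPM in floxed control livers (SD, n = 4 each; adjusted p = 0.397 in limma). Its groups overlapped, since floxed control 4 was at 1.98 TPM. The markers with fold changes above 0 were *Stab1* (0.13), *Erg* (0.10) and *Eng* (0.06). The 12 lymphocyte markers summed to 17.4, 20.4, 31.5 and 24.4 TPM in the knockouts, against 17.5, 15.8, 24.1 and 10.9 TPM in the floxed controls. All 8 tested lymphocyte markers had fold changes above 0, with a median of 0.22. In limma 0 passed (2 at an unadjusted p under 0.05, both higher). Over all tested genes, 64.6% had fold changes above 0, with a median of 0.05, and 8.02% had an unadjusted p under 0.05 in limma. None of the markers of either list was at 0 in all libraries. Floxed control 4 was the lowest control for *S1pr1* and for both sums, whereas floxed control 2 was low for *S1pr1* and the highest library for the endothelial sum. The part of these cells in the *S1pr1* value was not tested.

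**Figure D4:**
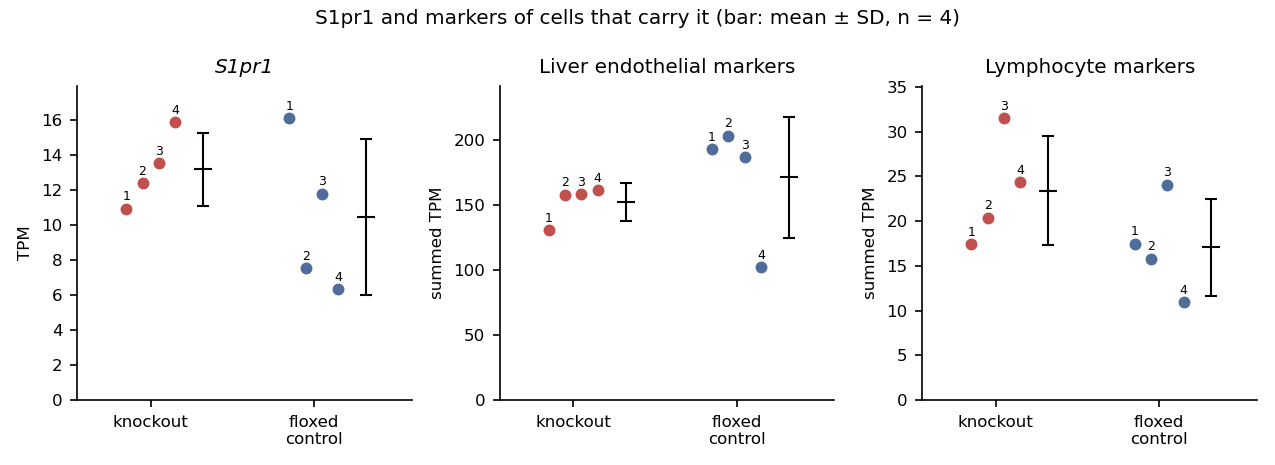
TPM of *S1pr1* and summed TPM of the endothelial and lymphocyte marker lists (linear axes from 0) in knockout (left) and floxed control (right) libraries. Points are libraries with their replicate number and bars the mean ± SD. Floxed control 4 is the lowest control in each panel, and floxed control 2 is low for *S1pr1* at 7.55 TPM with the highest endothelial sum of 203 TPM.

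*S1pr2* (ENSMUSG00000043895) encodes a receptor that in hepatocytes also responds to conjugated bile acids. It stood at 2.72, 3.93, 3.79 and 4.63 TPM in the knockouts, against 4.24, 4.22, 3.80 and 2.48 TPM in the floxed controls. Knockout 4 was the highest library and floxed control 4 the lowest. Its log2 fold change was 0.03 ± 0.18 (SE; 95% interval -0.38 to 0.43, adjusted p = 0.993 in limma), and turned to -0.02 after quantile normalization. *S1pr1* made up 77.9 ± 1.73% of the TPM of these receptors in knockout and 72.7 ± 6.44% in floxed control livers (SD, n = 4 each). This share was lowest, 64.1%, in floxed control 2.

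*Apom* (ENSMUSG00000024391), the lipocalin that carries S1P on HDL, stood at 220, 274, 308 and 317 TPM in the knockouts, against 293, 326, 265 and 287 TPM in the floxed controls. Knockouts 3 and 4 exceeded 3 of the controls, and knockout 1 lay below all of them. For *Apom* the log2 fold change was -0.08 ± 0.12 (SE; 95% interval -0.34 to 0.19, adjusted p = 0.943 in limma). Without knockout 1 it turned to 0.035.

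The other HDL genes and known regulators of *Apom* were listed beside it. Of 13 tested, 0 passed in limma, 7 had fold changes above 0 and 6 below, with a median of 0.01. Fold changes were above 0 in 64.6% of all tested genes, with a median of 0.05. *Apoa1*, the main HDL protein, averaged 10905 ± 879 TPM in knockout and 14504 ± 1748 TPM in floxed control livers (SD, n = 4 each; log2 fold change -0.41, adjusted p = 0.204 in limma). Its groups did not overlap, as for 1.46% of all tested genes in this direction. *Lipc*, the hepatic lipase that remodels HDL, averaged 130 ± 10.4 TPM in knockout and 97.2 ± 10.9 TPM in floxed control livers (0.42, adjusted p = 0.200), also without overlap, as for 3.29% of all tested genes in this direction. The transcription factor genes *Hnf4a* (-0.22, adjusted p = 0.665) and *Foxa2* (0.25, adjusted p = 0.633) did not pass in limma either.

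Other genes that supply, break down, sense or transport S1P, or act on its precursors, showed 0 called differences in limma. Of 15 listed, 11 were tested, 3 with fold changes above 0 and 8 below (median -0.08), and none passed at an unadjusted p of 0.05. Among all tested genes, 64.6% were above 0 (median 0.05) and 8.02% had an unadjusted p under 0.05 in limma. *Acer2*, an alkaline ceramidase of the Golgi apparatus, averaged 2.86 ± 1.13 TPM in knockout and 4.43 ± 1.60 TPM in floxed control livers (SD, n = 4 each; log2 fold change -0.49, adjusted p = 0.735 in limma). *Plpp3*, a lipid phosphatase of the cell surface, averaged 39.1 ± 6.54 TPM in knockouts and 47.7 ± 11.2 TPM in floxed controls (-0.27, adjusted p = 0.798). The receptor gene *S1pr3* (0.15, adjusted p = 0.890) and *Aldh3a2*, whose enzyme oxidises the aldehyde left by the lyase (0.09, adjusted p = 0.915), did not pass. *Sgpp2*, *S1pr4*, *Mfsd2b* and *Acer1* were too low to test.

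Around the synthases, 12 genes of ceramide transport and sphingomyelin turnover and 14 genes of ceramide synthesis were read. Of the first list 10 were tested, and *Smpd3* was the 1 that passed in limma, lower in the knockout. The others ran 5 above and 4 below 0. *Ormdl3*, a brake on the first step of sphingolipid synthesis, averaged 58.7 ± 4.41 TPM in knockout and 49.1 ± 6.05 TPM in floxed control livers (SD, n = 4 each; log2 fold change 0.26, adjusted p = 0.561 in limma). The acid sphingomyelinase gene *Smpd1* (0.18, adjusted p = 0.863) and *Smpd4* (-0.16, adjusted p = 0.896) did not pass. Of the ceramide synthesis genes 9 were tested and 0 passed at either threshold, 4 above and 5 below 0 with a median of -0.04. Beside both lists, 64.6% of all tested genes lay above 0, and 8.02% had an unadjusted p under 0.05 in limma. *Cers2*, the ceramide synthase for very long chains, averaged 237 ± 43.1 TPM in knockouts and 195 ± 26.9 TPM in floxed controls (0.28, adjusted p = 0.699). *Sptlc1* (0.17, adjusted p = 0.840), *Sptlc2* (-0.15, adjusted p = 0.923) and *Kdsr* (0.14, adjusted p = 0.934), which act in the first steps of that synthesis, did not pass in limma. *Enpp7* and *Sptlc3* were listed at 0 in all libraries.

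Single libraries ran low or high across many of the 10 genes. Knockout 1 was the lowest knockout for 9 of the 10, beside 56.6% of all tested genes, and floxed control 4 the lowest control for 7, beside 62.6%. Floxed control 2 was the highest control for 8 of the 10, beside 33.4% of all tested genes. As a mean deviation from each gene's 8-library mean on the log2 scale, the 10 genes stood at -0.15, 0.10, 0.16 and 0.25 in knockouts 1 to 4, against 0.04, 0.17, -0.16 and -0.41 in floxed controls 1 to 4. Over all tested genes the same measure was -0.10, 0.09, 0.04 and 0.07 in the knockouts, against 0.07, 0.05, -0.01 and -0.22 in the floxed controls. Knockout 1 and floxed control 4 were low by both measures, and floxed control 3 was low for the 10 genes while close to 0 over all tested genes.

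**Figure D5:**
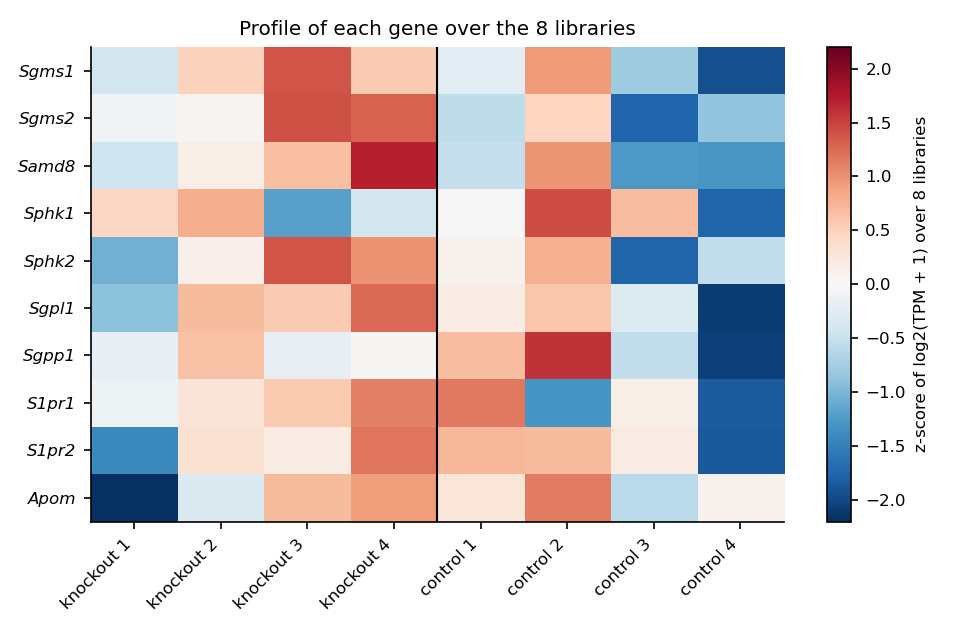
Z-score of log2(TPM + 1) over the 8 libraries (colour) for each gene (rows), with knockouts 1 to 4 left of the line and floxed controls 1 to 4 right of it. Columns knockout 1 and floxed control 4 are mostly blue, for lower values, and floxed control 2 is mostly red apart from *S1pr1*.

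Likeness of profiles was measured as the root mean square difference of these z-scores over the 8 libraries, which is 0 for identical and 1.41 for unrelated profiles. Of the 45 pairs of members, *Sgpl1* and *S1pr2* were the most alike at 0.38, then *Sgms2* and *Samd8* at 0.43, *Sgms2* and *Sphk2* at 0.46 and *Sgms1* and *Sgpl1* at 0.50. The kinases were the least alike, *Sphk1* and *Sphk2* differing by 1.55. Knockout 3, for example, had the highest *Sphk2* value and the lowest *Sphk1* value of the knockouts. *S1pr1* was not close to the endothelial markers, with a median difference of 1.11 over 13 markers and 0.77 to the nearest, *Eng*, whereas *S1pr2* had a median of 0.64 and 0.49 to *Pecam1*. These likenesses rest on 8 libraries and share the differences between whole libraries given above, and they carry no test.

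Among 8020 genes of at least 5 TPM, the profiles most like each member were as follows. *Slc25a5* (0.12) and *Wdr81* (0.20) were closest to *Sgms1*, *Rnf186* and *Pip4p1* (0.25 each) to *Sgms2*, and *Pde3b* and *Tm9sf2* (0.21 each) to *Samd8*. For the kinases these were *Rplp2* (0.19) and *S100a8* (0.26) beside *Sphk1*, and *Arih2* (0.24) and *Pcmtd1* (0.26) beside *Sphk2*. *Mob1a* (0.13) and *Tnpo2* (0.15) were closest to *Sgpl1*, and *Rps6kc1* and *Tceal9* (0.27 each) to *Sgpp1*. *Itga5* (0.26) and *Aldh7a1* (0.28) stood nearest to *S1pr1*, *Lamp1* (0.10) and *Clic4* (0.12) to *S1pr2*, and *Ivns1abp* and *Galnt11* (0.25 each) to *Apom*. With this many candidates and 8 libraries, close profiles occur among unrelated genes.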

How the data were processed

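Sequencing libraries of 8 mouse livers came from a kit for total RNA that keeps strand, per the labels. The values deposited by the authors are TPM with 2 decimals, 55416 identifiers by 8 libraries. RSEM 1.3.3 and GRCh38.p13 are named in the submitters' processing notes; that build is human while the identifiers are mouse genes. The aligner, annotation release and strand setting remain not given in the sources used here. TPM keeps no depth, so no counting interval or count test was made. A symbol was found for 52083 identifiers. *Cert1* is listed there under *Col4a3bp* and *Tf* under *Trf*. Values were transformed to log2(TPM + 1), a pseudocount of 1. A filter kept the 12710 genes that reached 1 TPM in 4 or more libraries. They were fitted in limma 3.58.1 under R 4.3.3 (lmFit, eBayes with trend, no covariates), with Benjamini-Hochberg adjustment over all 12710. The exact permutation test used scipy 1.17.1.

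On simulated libraries of 12710 genes for this comparison, 88.0% of genes changed 2-fold and 100% of those changed 4-fold were recovered, with 10 wrong calls. The changes were planted only in genes of higher level than *Sgms1*, *Samd8*, *S1pr2* and *Sphk1*, with independent normal noise and no whole-library shifts. Recovery of smaller changes, or of changes in genes as low as these, was not measured. In the real libraries *Dbp*, at a log2 fold change of -2.44, did not pass (adjusted p = 0.108 in limma).

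The members and lists were chosen with earlier results of these data known. All members are named, with *Smpd3*, up to 4 genes of smallest p per list, and the 2 closest profiles per member. *Dbp*, *Rpl18* and *Gm29292* were named because their exons overlap members, after values were seen. Alternatives were 2 pseudocounts, 2 filters, 3 scalings, a replicate block, robust eBayes, library weights and leaving out each library.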

Additional observations from a re-analysis of the deposited data

Results flagged for a closer look

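No member of the 10, nor *Smpd3*, had a library set far apart from the other 3 of its group. Among the summed gene lists, 4 groups of libraries did, out of 42 groups of 4 examined in all, where chance sets apart about 1 in 20. The sum of the HDL and *Apom* regulator list in the knockouts stood apart because knockout 1, at 35197 TPM, lay above the others at 29247 to 29988 TPM (gap over range 0.875). The hepatocyte marker sum in the knockouts stood apart because knockout 2, at 83654 TPM, lay below the others at 94329 to 95098 TPM (0.933). The endothelial sum in the knockouts stood apart through knockout 1, at 131 TPM against 158 to 161 TPM (0.887). In the floxed controls it stood apart through floxed control 4, at 102 TPM against 186 to 203 TPM (0.835). Knockout 1 and floxed control 4 are also the libraries in which most of the 10 genes were lowest.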

How the results depend on the processing

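Under all 18 alternatives, 0 of the 10 genes passed in limma, and the smallest adjusted p was 0.334, for *Sgms2*. *Sgms2* had an unadjusted p under 0.05 in 11 of the 19 settings, the one reported included. The log2 fold change kept its sign in 6 of the 10 genes, *Sgms1*, *Sgms2*, *Samd8*, *Sphk2*, *Sgpl1* and *S1pr1*, under every alternative. Its size depended on single libraries: leaving out 1 gave 0.21 to 0.58 for *Sgms1*, 0.27 to 0.47 for *Sgms2*, 0.22 to 0.52 for *Samd8*, 0.068 to 0.33 for *Sphk2*, 0.059 to 0.30 for *Sgpl1* and 0.19 to 0.60 for *S1pr1*. *Sgpp1* turned to -0.035 after median-of-ratios scaling, -0.042 after quantile normalization, -0.0028 without mitochondrial and the 20 most abundant genes and -0.015 with library weights. *S1pr2* turned to -0.016 after median-of-ratios scaling and -0.023 after quantile normalization. Leaving out 1 library gave -0.27 to 0.10 for *Sphk1*, -0.063 to 0.092 for *Sgpp1*, -0.11 to 0.14 for *S1pr2* and -0.14 to 0.035 for *Apom*. The cause was not tested. The filter of a mean of at least 5 TPM left out *Sphk1* and *S1pr2*. The background of 13 genes past the threshold became 8 and 6 with pseudocounts of 0.1 and 5, 0 without a filter, and 20 both without mitochondrial and the 20 most abundant genes and with library weights. It ran from 0 to 12 when 1 library was left out, with 0 without knockout 3, floxed control 1 or floxed control 4, 2 without knockout 2 or floxed control 3, and 5 without knockout 1. With the replicate block it was 0 (743 genes at an unadjusted p under 0.05), and 0 of the 10 genes passed. The adjusted p of *Smpd3* in limma was 0.167 without a filter, 0.0818 with the replicate block, and 0.0416 to 0.0964 when 1 library was left out, above 0.05 in 6 of those 8 fits; the other 8 alternatives gave 0.0134 to 0.0431. Same-numbered libraries had deviations from group means correlated at -0.20 to 0.03, and none of the 4 knockouts correlated best with its own number. Whole-library shifts enter these correlations and the labels do not speak of pairing, so they cannot decide whether libraries were paired. Depth is unknown, and values of *Sphk1* near 2 TPM are the least precise.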

Other observations

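Markers of 3 further cell types, read as a description of the samples, showed no member past the threshold in limma. For comparison with the counts below, 64.6% of all tested genes had fold changes above 0, and 8.02% had an unadjusted p under 0.05 in limma. The 10 Kupffer and macrophage markers summed to 751 to 1085 TPM in knockouts and 586 to 1189 TPM in floxed controls. Of 9 tested, 5 had fold changes above 0 and 4 below, and 1 passed at an unadjusted p under 0.05. This was *Marco*, a scavenger receptor gene, at 9.62 ± 1.73 TPM in knockout and 17.9 ± 1.52 TPM in floxed control livers (SD, n = 4 each; adjusted p = 0.0609 in limma). The 10 stellate cell markers summed to 325 to 397 TPM in knockouts and 216 to 377 TPM in floxed controls, and of 10 tested 7 had fold changes above 0, none at an unadjusted p under 0.05. The 8 cholangiocyte markers summed to 192 to 654 TPM in knockouts and 259 to 482 TPM in floxed controls. Most of this sum was *Spp1*, at 381 ± 184 TPM in knockouts and 319 ± 96.1 TPM in floxed controls (SD, n = 4 each). All 6 tested cholangiocyte markers had fold changes above 0, none at an unadjusted p under 0.05. Of the 12 hepatocyte markers, 4 had fold changes above 0 and 8 below (median -0.08), and 1 passed at an unadjusted p under 0.05. This was *Ahsg*, the fetuin-A gene, at 8791 ± 650 TPM in knockouts and 10134 ± 709 TPM in floxed controls (SD, n = 4 each; adjusted p = 0.496 in limma).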
